A study of Rattus with 18 samples.

Results

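The genes described here are 8 receptors and regulators of complement in rat glomeruli: the anaphylatoxin receptors C5ar1 and C3ar1, the membrane regulators Cd55, Cd46 and Cd59, and the soluble regulators Cfi, Serping1 and Clu. They were found on the arrays by gene name among 23195 genes and transcripts tested, and all 8 had a probe that passed the filter on dim probes. The brightest probe stood for a gene. Of the 8 genes, 7 were well above background on all 18 arrays. C3ar1 was not, and passed only through the groups of days 1 to 4, so that its difference from the controls is partly fixed by the filter.

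The samples were glomeruli of SD rats labelled as weighing 200 g. Controls had received saline and were taken on day 0. The other groups were injected with anti-Thy1, an antibody to a glycoprotein that rat mesangial cells carry on their surface, and were taken on day 1, 2, 3, 4 or 5 afterwards. Each group had 3 single-colour arrays, named here by the replicate number in their titles. The study's design text speaks of 3 glomeruli from each of 6 rats at a time point. Which of these rats an array stands for is not stated, so that p-values measure the spread between arrays, which may be partly technical. The antibody lesion is a model in which the injury is aimed at 1 cell type of the glomerulus, and the labels name no group with a control antibody.

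Complement is a cascade of plasma proteins that antibody on a cell surface can set off. Its enzymes cleave C3 and C5, which releases the small peptides C3a and C5a and leaves larger fragments that mark the cell and start the membrane attack complex. Anti-Thy1 nephritis is a classical example of a glomerular lesion that needs complement, and host cells limit the cascade with regulators in their membranes and in plasma. C5ar1 and C3ar1 are the receptors through which C5a and C3a act on leukocytes. Cd55 speeds the decay of the convertases, Cd46 is a cofactor for the cleavage of C3b and C4b, and Cd59 blocks the last step of the membrane attack complex. Factor I, encoded by Cfi, is the protease that makes those cleavages. C1 inhibitor, encoded by Serping1, inactivates C1r, C1s and the lectin pathway proteases, and clusterin, encoded by Clu, binds the terminal complex in the fluid phase.

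The values are read through single 60-base probes, and 3 of them are shown because 2 belong to the members whose signal was lower after the antibody and the third is the Serping1 probe that gave no call where the gene's other probe did. Numbers in the names are the probe's first base in its target transcript.
Cd55 from base 825: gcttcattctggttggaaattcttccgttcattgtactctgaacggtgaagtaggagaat
Cd46 from base 497: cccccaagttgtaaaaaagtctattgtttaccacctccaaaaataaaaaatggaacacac
Serping1 from base 564: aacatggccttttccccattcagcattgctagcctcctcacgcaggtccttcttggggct
The array files place the Cd55 probe at chr13:43336846-43336905 on the minus strand of genome build rn4. The Cd46 probe lies at chr13:110995983-110996923, minus strand, a stretch of 941 bases. The Serping1 probe lies at chr3:67975119-67976458, minus strand, a stretch of 1340 bases. Those last stretches are longer than the probes themselves, so their sequence is not contiguous in that build.

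The remaining probes, with build rn4 throughout, were placed as follows. C3ar1 was read at chr4:159326407-159326466 (minus strand) and Cd59, which the reference table now lists as Cd59b, at chr3:89244707-89244766 (plus strand). Cfi was read at chr2:227324985-227325044 (plus strand), Clu at chr15:45404790-45405138 (plus strand), and the brighter Serping1 probe at chr3:67968828-67968887 (minus strand). The file gives no position for the C5ar1 probe, and exon or intron annotations of rn4 were not used here.

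All values below are log2 of the processed spot signal minus the 75th percentile of the same array, so that 0 is the brightness of that percentile. A change was called when the adjusted p of limma's moderated test was under 0.05 after Benjamini-Hochberg adjustment over all genes tested. Where a bracket gives a change and then a bare second value, the second is its adjusted p. Against the controls, 5 of the 8 genes were called higher and 2 lower on day 1, where 19.2% of all genes tested were called higher and 20.8% lower. On day 2 the counts were 5 higher and 0 lower (background 20.8% and 25.1%). On day 3 they were 4 and 1 (21.7% and 26%), on day 4 they were 4 and 0 (25.6% and 26.7%), and on day 5 they were 4 and 1 (20.9% and 23.4%). The counts of members higher on days 1 to 4, and that of the F-test below, include C3ar1, whose calls are partly fixed by the filter. At an unadjusted p under 0.05 by limma, 6, 5, 5, 4 and 5 members were higher on days 1 to 5 and 2, 1, 1, 0 and 1 lower. The share of all genes at that threshold was not taken against the controls, so that these last counts have no background beside them. The median change of the 8 genes was 0.86, 0.65, 0.58, 0.55 and 0.63 on days 1 to 5, against 0.06, 0.04, -0.02, 0.05 and 0.06 over all genes tested. The split depended on the scaling between arrays, although no called change of a member turned its direction under the 3 other scalings. Scaling to the array median gave 6, 6, 6, 5 and 6 members higher and 0 lower on days 1 to 5, and moved the median change of all genes to between 0.37 and 0.49. Scaling to 12 reference genes gave 3, 3, 2, 0 and 1 higher and 2, 2, 2, 3 and 1 lower, and moved that median to between -0.69 and -0.41. Without control replicate 4, the array that stood apart from the other controls, 4, 3, 2, 3 and 2 members were higher on days 1 to 5 and 0 lower on any day. In the moderated F-test over the whole course 4 of 8 passed (C5ar1, C3ar1, Cfi and Clu), where 53.1% of all genes did.

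The arrays set limits that touch each of these counts. Before scaling, the 75th percentile was 251.9 to 452.4 on the arrays of days 1 to 5 and 180.7 to 229.2 on the controls, and an array had 55.2% to 69.6% of its probes well above background. The controls shared slide 1 with day 1 replicate 1 only, and the arrays of days 2 and 4 had a scan day of their own, so that scan day and antibody cannot be told apart there. Control replicate 4 had correlations of 0.952 and 0.9583 to the other controls, where correlations within a day reached 0.9909. The number of arrays limits the precision, and in bulk glomeruli fewer or more cells of a type and less or more RNA per cell cannot be told apart. Some markers of the glomerular cells moved with the groups. The counts of cell type markers below stand beside the shares of all genes tested. Those shares were 20.8%, 25.1%, 26%, 26.7% and 23.4% called lower on days 1 to 5, and 19.2%, 20.8%, 21.7%, 25.6% and 20.9% called higher.

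Of 8 mesangial markers, 4 (Thy1, Itga8, Pdgfrb and Gata3) were called lower and 0 higher on day 1 by limma, with 1 higher at an unadjusted p under 0.05. Thy1 itself changed by -3.25 on day 1 and by -1.84 on day 2, whereas Des (0.68), Pdgfra (0.57) and Cspg4 (0.50) of the same list lay above the controls on day 1 without a call. The summed level of the 8 was 15.91 to 20.60 on day 1 and 14.62 to 17.99 on day 2, against 15.18 to 22.82 on the controls, so that the sum shows no fall outside the range of the controls on day 1. Of 10 podocyte markers, 2, 1, 2, 3 and 3 were called lower on days 1 to 5, near or below the share of all genes. Among these markers was Synpo on every day (-1.38, -2.08, -1.79, -1.82 and -1.38), while Podxl was called higher on day 5. The sum of the 10 podocyte markers, in which bright genes weigh most, was 207.42 to 351.56 after the antibody, against 213.29 to 272.19 on the controls. Of 10 markers of glomerular endothelium, 4, 3, 3, 5 and 4 were called lower on days 1 to 5 and 1 higher on day 3 (Emcn). Ehd3 (-2.11, -1.74, -1.58, -2.81 and -2.39), Tek and Flt1 were called lower on every day. The endothelial sum was 114.38 to 146.45 on day 1, 129.49 to 229.59 on day 2, 194.74 to 237.47 on day 3, 65.47 to 100.50 on day 4 and 116.76 to 141.50 on day 5, against 146.47 to 190.72 on the controls. The 8 listed markers of proximal tubule had sums of 263.08 to 593.84 after the antibody, against 331.18 to 425.80 on the controls. The 8 of distal tubule and collecting duct had sums of 316.12 to 643.24, against 384.87 to 609.30 on the controls. On the controls both tubule sums lay above the podocyte and endothelial sums, although sums of different lists rest on different probes. A signal of the members thus need not come from glomerular cells. The part of these cells in the results, the lower Cd55 and Cd46 included, was not tested.

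**Figure D1:**
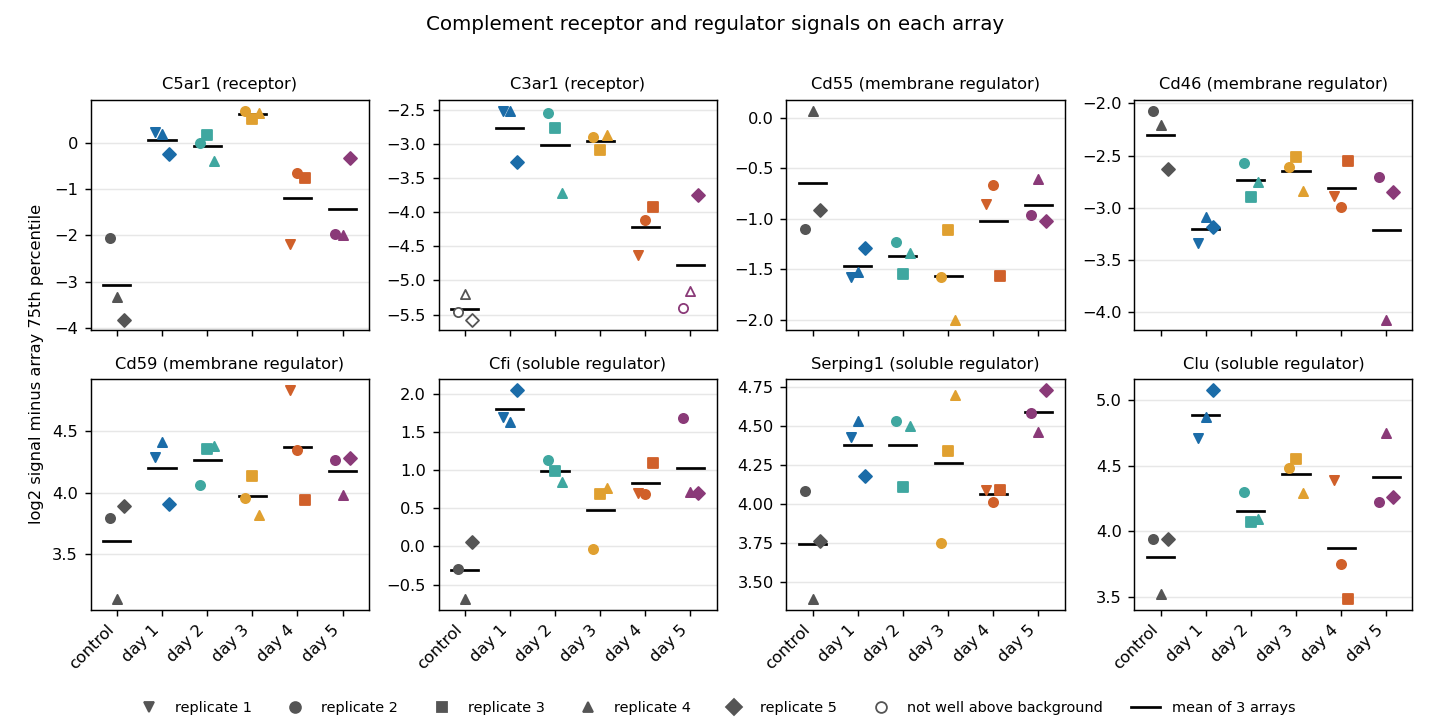
Signal of each of the 8 genes on each of the 18 arrays (y axis, log2 signal minus the array's 75th percentile; x axis, control and days 1 to 5). Marker shapes give replicates, open markers are not well above background and black bars are means of 3 arrays; C5ar1 and C3ar1 lie highest on days 1 to 3, Cd55 lies below the controls on days 1 to 3, and Cfi and Clu are highest on day 1.

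C5ar1, the C5a receptor of neutrophils and macrophages, was called higher than in the controls on each of the 5 days. Its log2 signal on the controls was -2.06, -3.34 and -3.83 (replicates 2, 4 and 5). It was 0.24, 0.19 and -0.24 on day 1, then 0.00, 0.16 and -0.39 on day 2, and 0.69, 0.51 and 0.65 on day 3. Every array of these days lay above the brightest control, and the 3 arrays of day 3 were the brightest of all. On day 4 the values were -2.18, -0.65 and -0.77, and on day 5 they were -1.98, -1.99 and -0.34. Replicate 1 of day 4 fell within the range of the controls, whereas day 5 lay above them by a small margin on replicates 2 and 4.

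By limma, C5ar1 was 8.83-fold higher than in controls on day 1 (log2 change 3.14 ± 0.49 SE, adjusted p = 0.0016), 8.01-fold on day 2 (3.00 ± 0.49, adjusted p = 0.00085) and 12.9-fold on day 3 (3.69 ± 0.49, adjusted p = 0.00044). On day 4 the rise was 3.68-fold (1.88 ± 0.49, adjusted p = 0.0057) and on day 5 it was 3.12-fold (1.64 ± 0.49, adjusted p = 0.015). The difference of day 4 from day 3, -1.81 ± 0.49, missed the threshold (adjusted p = 0.061), as did that of day 5 from day 3, -2.05 ± 0.49 (adjusted p = 0.13). The day 5 call ended without control replicate 4 (1.51, adjusted p = 0.064), without control replicate 5 (1.26, 0.066) and without day 5 replicate 5 (1.09, 0.079). Scaling to reference genes ended the calls of day 4 (1.13, 0.065) and day 5 (1.11, 0.085). It kept those of days 1 to 3, at 2.57, 2.55 and 3.23. Scaling to the median and quantile normalization kept the calls of all days. With slide as a fixed block the changes were 3.32 on day 1 (adjusted p = 0.022), 3.94 on day 3 (0.034) and 1.86 on day 5 (0.29).

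C3ar1, the C3a receptor of myeloid cells, was likewise highest on days 1 to 3 and lower on days 4 and 5. The controls were at -5.46, -5.20 and -5.58, and 0 of the 3 were well above background. Day 1 gave -2.52, -2.51 and -3.26, day 2 gave -2.54, -2.76 and -3.72, and day 3 gave -2.90, -3.08 and -2.87, and all 9 of these arrays were well above background. Day 4 was lower, at -4.62, -4.11 and -3.92, still above every control. Day 5 gave -5.40, -5.15 and -3.75, where only replicate 5 was well above background. Replicate 2 of day 5 lay within the range of the controls and replicate 4 just above it.

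Since the controls were not well above background, the rise of C3ar1 is a bound under the scaling used. It was at least 6.28-fold on day 1 (fitted log2 change 2.65 ± 0.39, limma adjusted p = 0.0013), at least 5.30-fold on day 2 (2.41 ± 0.39, 0.00078) and at least 5.51-fold on day 3 (2.46 ± 0.39, 0.00059). For such a bound, each control array counts with its own signal or, if that is higher, with the lowest signal that was well above background on it. Here the own signals counted, so that the bounds equal the fitted changes and make no allowance for their standard errors. Scaling to reference genes gave smaller changes, 2.07, 1.96, 2.00 and 0.45 on days 1 to 4. Scaling to the median and quantile normalization gave larger ones. On day 4 it was at least 2.30-fold (1.20 ± 0.39, adjusted p = 0.017), and day 5 was not called (0.65 ± 0.39, adjusted p = 0.18). Without day 4 replicate 3 the day 4 change was 1.05 (adjusted p = 0.065). A normexp background correction in place of the scanner's own, which adds an offset to every spot, ended the calls of days 1 to 3 (0.80, 0.11 and 0.22) and turned day 4 to -0.34.

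The markers of macrophages moved with both receptors. Of 12 listed markers 11 were tested (Cd163 was below the filter), and 9, 10, 10, 5 and 1 of them were called higher on days 1 to 5. Their summed level lay between 34.4 and 59.1 on the controls, between 182.7 and 270.1 on day 1, between 144.1 and 233.8 on day 2, and between 263.1 and 300.9 on day 3. On day 4 it was 41.4 on replicate 1 and 166.8 and 143.2 on the others, and on day 5 it was 70.3 and 50.2 on replicates 2 and 4 and 217.7 on replicate 5. Replicates 2 and 3 of day 4 and replicate 5 of day 5, which had the higher sums of their days, also had the higher C5ar1 and C3ar1 signals of their days.

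Neutrophil markers followed another order of days. Of 10 listed markers 4 were tested (S100a8, S100a9, Camp and Mmp9), while Mpo, Elane, Csf3r, Cxcr2, Ngp and Mmp8 were below the filter. On day 1, 3 were called higher and 1 lower, on day 2 there was 1 each way, on days 3 and 4 none was called by limma (at an unadjusted p under 0.05, 1 higher on day 3 and 1 each way on day 4), and on day 5, 3 were higher. The marker called lower was Mmp9, which changed by -1.79, -1.62, -0.39, -1.38 and -0.88 on days 1 to 5. The summed level of the 4 neutrophil markers was 1.21 to 2.89 on the controls, 3.76 to 5.07 on day 1, 1.90 to 3.91 on day 2, 2.14 to 4.56 on day 3, 1.56 to 6.17 on day 4 and 4.67 to 9.56 on day 5, the day on which the macrophage sum was low on replicates 2 and 4. Markers of T, B and NK cells were called higher in 2, 5, 6, 0 and 1 of 7 tested genes on days 1 to 5, and platelet markers in 2 of 3 on each of days 1 to 3. Among the neutrophil and T, B and NK markers, Camp, Cd2 and Cd79b were each well above background on 1 of 3 controls. They passed the filter only through antibody groups, so that their calls are partly fixed by the filter. The part of any of these cell types in the receptor signal was not tested.

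A difference taken within an array does not depend on the scaling between arrays. C5ar1 minus the mean of the 11 macrophage markers averaged -2.96 ± 0.20 on day 1, -2.98 ± 0.15 on day 2, -2.85 ± 0.16 on day 3, -2.89 ± 0.27 on day 4 and -2.87 ± 0.34 on day 5, against -3.59 ± 0.46 on the controls (log2, SD, n = 3 arrays each). The day means of this difference lay close together, while those of C5ar1 itself reached 0.62 on day 3 and -1.44 on day 5. For C3ar1 the same difference was -5.79 ± 0.31 on day 1, -5.91 ± 0.37 on day 2, -6.42 ± 0.13 on day 3 and -5.91 ± 0.80 on day 4. No such value is given for C3ar1 on the controls and on day 5, where 0 and 1 of 3 arrays were well above background. These differences were chosen after the values were seen and are given without a test.

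**Figure D2:**
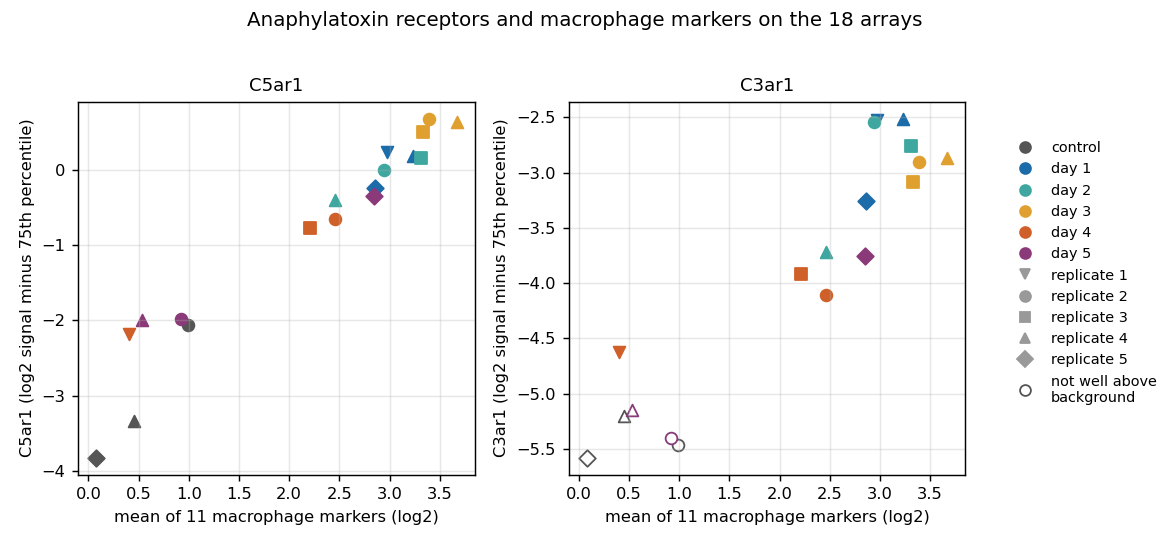
C5ar1 (left) and C3ar1 (right) on the y axis against the mean of 11 macrophage markers on the x axis, both as log2 signal minus the 75th percentile, 1 point per array, coloured by day and shaped by replicate, with open markers where the receptor was not well above background. Day 4 replicate 1 and day 5 replicates 2 and 4 lie near the controls in both panels, and day 5 replicate 5 lies near the arrays of days 1 and 2 for C5ar1 (-0.34).

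Across the 18 arrays, the genes whose pattern was most like that of C5ar1 were Tyrobp (Pearson r = 0.984), Fcgr1a (0.98) and Adgre1 (0.978), out of 12251 genes with a current symbol. Tyrobp encodes an adaptor of myeloid receptors, Fcgr1a a receptor for IgG and Adgre1 the macrophage protein F4/80. Those most like C3ar1 were Bcl2a1 (0.947), Clec4a1 (0.941) and Csf1r (0.94), the last being the receptor for a macrophage growth factor. The points share the 6 groups and the scaling of each array, so that these values are a description.

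Of the membrane regulators, Cd55 and Cd46 were the only genes among the 8 that were called lower on any day, and Cd59 was called higher on 2 days. Cd55, the decay-accelerating factor, had -1.10, 0.07 and -0.91 on the controls, with replicate 4 well above the others. It had -1.57, -1.53 and -1.29 on day 1, -1.23, -1.54 and -1.34 on day 2, and -1.57, -1.11 and -2.0 on day 3. All 9 of these arrays lay below the lowest control, on day 3 only just for replicate 3. The values of day 4 (-0.85, -0.66 and -1.56) and of day 5 (-0.96, -0.61 and -1.02) overlapped with the controls.

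Cd55 was called lower on day 1 (log2 change -0.82 ± 0.30 SE, limma adjusted p = 0.044) and on day 3 (-0.92 ± 0.30, 0.022), and not on day 2 (-0.72 ± 0.30, 0.063), day 4 (-0.38 ± 0.30, 0.31) or day 5 (-0.22 ± 0.30, 0.58). Both calls ended without control replicate 4, where the change was -0.46 on day 1 (adjusted p = 0.23) and -0.56 on day 3 (0.13). Scaling to the median ended both as well, at -0.49 (0.15) and -0.52 (0.12). Quantile normalization ended the day 1 call (-0.74, 0.071) and kept that of day 3 (-0.81, 0.044). Scaling to reference genes kept both, at -1.40 (0.0068) and -1.38 (0.0066). The day 1 call also ended without day 1 replicate 1 (-0.77, 0.12) or 4 (-0.78, 0.11), and the day 3 call without day 3 replicate 2 (-0.91, 0.056) or 4 (-0.70, 0.095). The patterns most like that of Cd55 over the 18 arrays were those of LOC100911627 (r = 0.876), Plet1 (0.857) and Dlg3 (0.824).

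Cd46, a cofactor that rodents are known to make mainly in the testis, was well above background on all arrays. It had -2.07, -2.21 and -2.63 on the controls, and -3.34, -3.09 and -3.19 on day 1, where each array lay below every control. Days 2 to 4 spanned -2.99 to -2.51 and overlapped with the controls. Day 5 had -2.71, -4.08 and -2.85, all below the lowest control, with replicate 4 far below the other arrays of its day. It was called lower on day 1 (-0.90 ± 0.28, limma adjusted p = 0.022) and on day 5 (-0.91 ± 0.28, 0.019). The changes of days 2, 3 and 4 were -0.43, -0.35 and -0.50 (adjusted p = 0.22, 0.33 and 0.15).

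Without day 5 replicate 4 the day 5 change of Cd46 was -0.47 (adjusted p = 0.072), and without control replicate 2 or 4 it was -0.79 (0.058) or -0.86 (0.063). The day 1 call ended without control replicate 2 (-0.79, 0.062) or 4 (-0.86, 0.075), and without day 1 replicate 1 (-0.84, 0.072) or 4 (-0.96, 0.05). Scaling to the median ended both calls, at -0.57 on day 1 (0.12) and -0.48 on day 5 (0.18). Quantile normalization did so too, at -0.60 (0.13) and -0.49 (0.20). Scaling to reference genes kept both, at -1.48 (0.00172) and -1.44 (0.00175). The genes most like Cd46 reached lower likeness than those of the other members, with Gna13 at r = 0.789, Nfic at 0.75 and Osmr at 0.738.

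Cd59, the inhibitor of the membrane attack complex, lay above the 75th percentile on every array. Its values were 3.79, 3.13 and 3.89 on the controls, 4.29, 4.41 and 3.91 on day 1, and 4.06, 4.36 and 4.38 on day 2. Day 3 had 3.96, 4.14 and 3.82, day 4 had 4.84, 4.35 and 3.94, and day 5 had 4.27, 3.98 and 4.28. Control replicate 4 was the lowest of all arrays, and day 3 was the only day on which an array fell within the range of the controls. It was called higher on day 2 (0.66 ± 0.24, limma adjusted p = 0.035) and day 4 (0.77 ± 0.24, 0.015). The changes of day 1 (0.60, adjusted p = 0.059), day 3 (0.37, 0.22) and day 5 (0.57, 0.065) were not called.

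Without control replicate 4 the change of Cd59 was 0.43 on day 2 (adjusted p = 0.17) and 0.53 on day 4 (0.08). Scaling to reference genes ended both calls, at 0.21 (0.41) and 0.02 (0.93). Quantile normalization did so too, at 0.38 (0.14) and 0.34 (0.17). Scaling to the median kept both, at 1.03 (0.0074) and 1.18 (0.0028). The day 2 call also ended without day 2 replicate 3 (0.62, 0.099) or 4 (0.61, 0.1), and the day 4 call without day 4 replicate 1 (0.54, 0.076). The most similar patterns were those of Atp8b1 (r = 0.898), Pex14 (0.896) and Vps37a (0.885).

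Within an array, Cd59 minus Cd55 averaged 5.67 ± 0.41 on day 1, 5.64 ± 0.31 on day 2, 5.54 ± 0.28 on day 3, 5.40 ± 0.35 on day 4 and 5.04 ± 0.39 on day 5, against 4.25 ± 1.03 on the controls (log2, SD, n = 3). Control replicate 4 was the lowest of these (3.06): without it the other controls averaged 4.85 ± 0.07 (n = 2), and the excess over the controls was 0.82 in place of 1.42 on day 1 and 0.19 in place of 0.79 on day 5. The lowest array of days 1, 2 and 3 (5.20, 5.29 and 5.26) lay above the highest control (4.89), whereas day 4 (5.01) did so narrowly and day 5 (4.59) did not. The gap says that the probes changed unequally, and not which of them changed. Cd59 minus Cd46 averaged 7.41 ± 0.27, 7.01 ± 0.33, 6.63 ± 0.05, 7.19 ± 0.63 and 7.39 ± 0.59 on days 1 to 5, against 5.91 ± 0.59 on the controls, and against 6.2 ± 0.47 without control replicate 4. Leaving out control arrays from within-array differences was chosen after the values were seen. The pairs here, and that of Cr1l and Cd55 below, join a gene called higher with one called lower on these arrays. Their separation from the controls is thus partly fixed by that choice and was not tested.

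**Figure D3:**
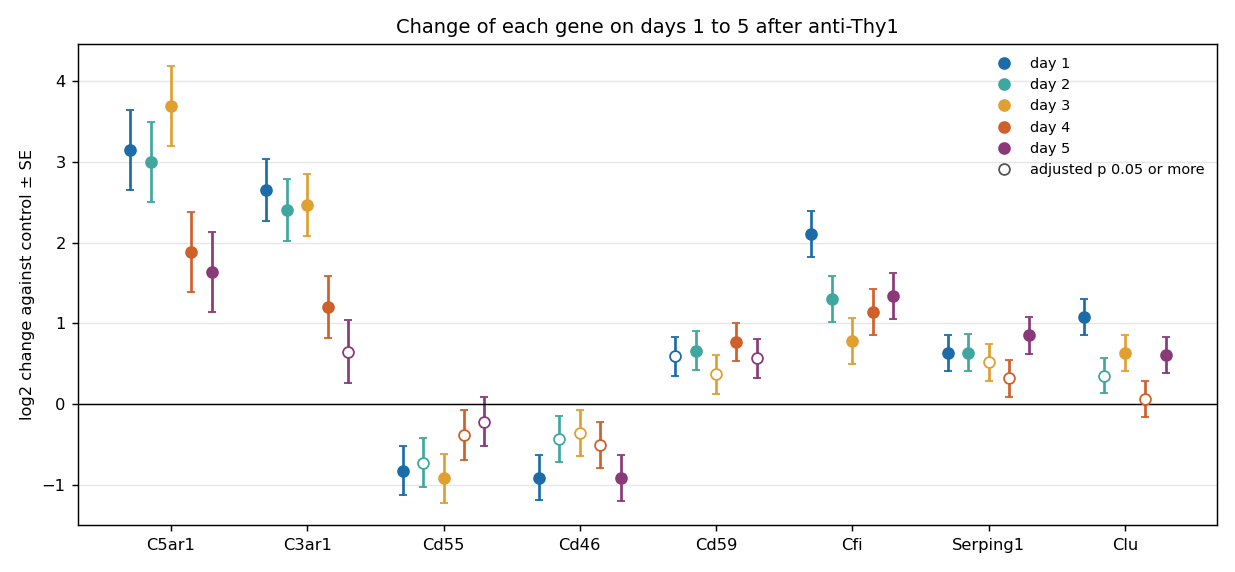
Log2 change of each gene against the controls on days 1 to 5 (y axis, points; bars, standard error of the fit; 3 arrays per group), with filled points where the adjusted p was under 0.05. C5ar1 and C3ar1 lie highest on days 1 to 3, Cd55 and Cd46 lie below 0 on all days, and Cd59, Cfi, Serping1 and Clu lie above 0.

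Among the soluble regulators, Cfi was called higher on all 5 days. The controls were at -0.30, -0.69 and 0.06, and day 1 was highest, at 1.70, 1.63 and 2.05. Day 2 had 1.13, 0.99 and 0.85, and day 3 had -0.03, 0.69 and 0.76, with replicate 2 of day 3 inside the range of the controls. Day 4 had 0.70, 0.69 and 1.09, and day 5 had 1.68, 0.71 and 0.70. Every array of days 1, 2, 4 and 5 lay above every control.

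The rise of Cfi was 4.30-fold on day 1 (log2 change 2.10 ± 0.28 SE, limma adjusted p = 0.00098) and 2.47-fold on day 2 (1.30 ± 0.28, 0.0027). It was 1.73-fold on day 3 (0.79 ± 0.28, 0.032), 2.20-fold on day 4 (1.14 ± 0.28, 0.0041) and 2.53-fold on day 5 (1.34 ± 0.28, 0.0025). Day 3 minus day 1 was -1.32 ± 0.28 (adjusted p = 0.11). The day 3 call ended without control replicate 2 (0.79, 0.059) or 4 (0.60, 0.14) and without day 3 replicate 3 (0.68, 0.11) or 4 (0.64, 0.11). With slide as a fixed block the rise was 2.01 on day 1 (0.025), 0.50 on day 3 (0.54) and 0.76 on day 5 (0.49). Scaling to reference genes ended the calls of day 3 (0.32, 0.36) and day 4 (0.39, 0.26). It kept those of days 1, 2 and 5, at 1.53, 0.85 and 0.81. The patterns most like that of Cfi were Spink1 (r = 0.885), Fam221a (0.86) and Ung (0.848).

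Clu, the gene of clusterin, was highest on day 1. The controls had 3.94, 3.52 and 3.94, and day 1 had 4.71, 4.87 and 5.08. Day 2 had 4.30, 4.07 and 4.09, day 3 had 4.48, 4.55 and 4.29, day 4 had 4.39, 3.75 and 3.48, and day 5 had 4.22, 4.75 and 4.26. Only day 4 overlapped with the controls, with replicate 1 above them, replicate 2 within their range and replicate 3 below it.

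Clu rose 2.12-fold on day 1 (1.08 ± 0.22, limma adjusted p = 0.0037), 1.56-fold on day 3 (0.64 ± 0.22, 0.028) and 1.53-fold on day 5 (0.61 ± 0.22, 0.036). It was not called on day 2 (0.36 ± 0.22, 0.20) or day 4 (0.07 ± 0.22, 0.81). The day 3 call ended without control replicate 4 (0.50, 0.11) and without day 3 replicate 2 (0.61, 0.074) or 3 (0.58, 0.082), and the day 5 call without control replicate 4 (0.47, 0.15) or day 5 replicate 4 (0.44, 0.15). With slide as a fixed block day 1 was 0.91 (0.039), day 3 was 0.45 (0.37) and day 5 was 0.58 (0.40). Scaling to reference genes ended the calls of days 1, 3 and 5, at 0.51 (0.076), 0.17 (0.53) and 0.08 (0.79). Quantile normalization kept that of day 1 (0.745, 0.016) and ended those of day 3 (0.30, 0.27) and day 5 (0.21, 0.45). Scaling to the median kept them, at 1.42, 1.03 and 1.04. Ifrd2 (r = 0.892), Stap2 (0.87) and Nle1 (0.864) had the patterns most like that of Clu.

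Serping1, the gene of C1 inhibitor, was the only member with more than 1 probe, and its probes gave different calls. The brighter probe, from base 1714 of the transcript, had 4.08, 3.39 and 3.76 on the controls. It had 4.43, 4.53 and 4.18 on day 1, 4.53, 4.11 and 4.50 on day 2, and 3.75, 4.34 and 4.70 on day 3. Day 4 had 4.09, 4.01 and 4.09, and day 5 had 4.58, 4.46 and 4.73. Days 1, 2 and 5 lay above every control, and days 3 and 4 overlapped with them.

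By this probe Serping1 was called higher on day 1 (0.64 ± 0.23, limma adjusted p = 0.037), day 2 (0.64 ± 0.23, 0.031) and day 5 (0.85 ± 0.23, 0.0084), and not on day 3 (0.52 ± 0.23, 0.070) or day 4 (0.32 ± 0.23, 0.24). The dimmer probe, whose sequence from base 564 is printed above, changed by 0.12, -0.31, -0.03, -0.47 and 0.04 on days 1 to 5, with no call (adjusted p = 0.67, 0.24, 0.91, 0.072 and 0.89). Its arrays spanned -1.70 to -0.61 after the antibody and overlapped with the controls (-1.03, -0.74 and -1.36) on every day. With the mean of both probes, the Serping1 change was 0.38 on day 1 (adjusted p = 0.11), 0.16 on day 2 (0.48) and 0.44 on day 5 (0.063), and the calls ended.

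The day 1 call of the brighter Serping1 probe ended without control replicate 4 (0.46, 0.16) or 5 (0.65, 0.065) and without day 1 replicate 1 (0.61, 0.096) or 4 (0.56, 0.12). Its day 2 call ended without control replicate 4 (0.46, 0.14) or 5 (0.65, 0.058) and without day 2 replicate 2 (0.56, 0.092) or 4 (0.58, 0.094). Scaling to reference genes ended the calls of days 1, 2 and 5, at 0.06 (0.85), 0.19 (0.53) and 0.32 (0.28). Quantile normalization did so too, at 0.30 (0.27), 0.36 (0.18) and 0.46 (0.093). Scaling to the median kept them, at 0.97, 1.01 and 1.28. With slide as a fixed block the change was 0.68 on day 1 (0.12) and 0.26 on day 5 (0.76). Over the 18 arrays the patterns most like that of the brighter probe were RGD1566355 (r = 0.854), Hs2st1 (0.848) and Smarcc2 (0.839).

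**Figure D4:**
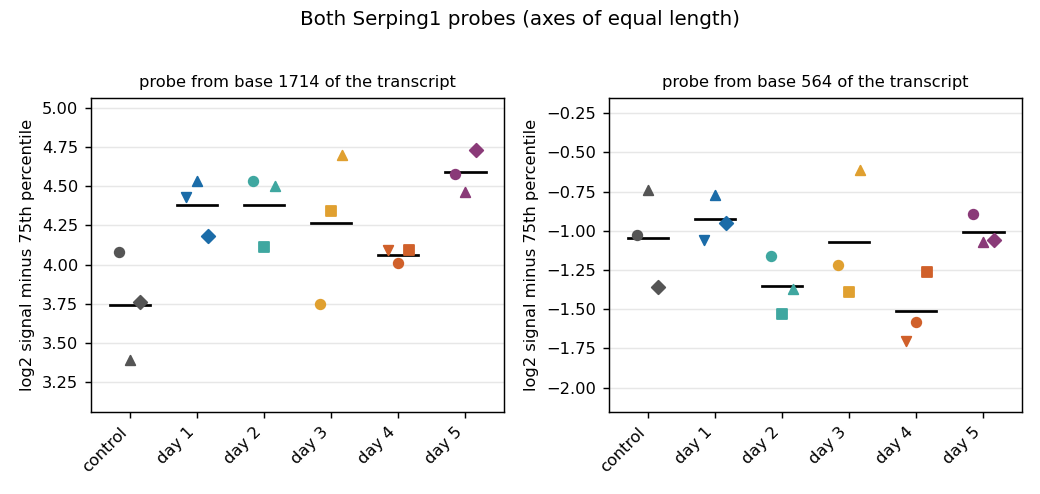
Both Serping1 probes on the 18 arrays (y axis, log2 signal minus the 75th percentile, with axes of equal length; x axis, control and days 1 to 5; black bars, means of 3 arrays). The probe from base 1714 lies above the controls on days 1, 2 and 5, and the probe from base 564 overlaps with them on every day.

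No member passed the test between any of the pairs of antibody days that were compared. Over all genes, 0.41% were called for day 2 against day 1, 0.323% for day 3 against day 2, 2.94% for day 4 against day 3 and 2.77% for day 5 against day 4. These comparisons of neighbouring days all cross scan days, so that scan day and time cannot be told apart in them. The following comparisons lie within a scan day. For day 3 against day 1 the share was 0.00431%, for day 5 against day 3 it was 0.00862%, for day 5 against day 1 it was 0.121% and for day 4 against day 2 it was 0.0992%. At an unadjusted p under 0.05, 2 of the 8 members differed for day 2 against day 1 (14.1% of all genes at that threshold), 0 for day 3 against day 2 (11.1%), 3 for day 4 against day 3 (20.6%) and 2 for day 5 against day 4 (15.5%). They were 1 for day 3 against day 1 (13.6%), 3 for day 5 against day 3 (13.2%), 4 for day 5 against day 1 (8.92%) and 2 for day 4 against day 2 (13.9%). The lowest adjusted p-values among these, by limma, belonged to the receptors. Beside the C5ar1 difference given above, C3ar1 was -2.0 ± 0.39 on day 5 relative to day 1 (adjusted p = 0.057), with day 5 replicates 2 and 4 not well above background, and -1.26 ± 0.39 on day 4 relative to day 3 (0.086). Without day 5 replicate 5, 2 members were called on day 5 relative to day 3 and 1 relative to day 1.

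The other complement genes of the list were counted by role, and they share the control arrays with the 8 members. Of 17 tested genes of initiation and of C3 and C4 (20 listed), 5, 8, 10, 5 and 5 were called higher on days 1 to 5 and 0 lower on any day. These are 29.4%, 47.1%, 58.8%, 29.4% and 29.4% of the 17, beside 19.2%, 20.8%, 21.7%, 25.6% and 20.9% of all genes called higher, so that the shares of days 1, 4 and 5 lay nearest to the background. Masp1, one of the genes called on day 4, was well above background on 0 of 3 controls. Fcna, called on days 1 to 3, was so on 1 of 3 controls. Both passed the filter only through antibody groups, so that their calls are partly fixed by the filter. At an unadjusted p under 0.05, 1 of the 17 was lower on day 2, 1 on day 3 and 0 on the other days. Of this role, Cfp, the gene of properdin, changed by 2.25, 2.47, 3.05, 0.62 and 0.71 on days 1 to 5 (limma adjusted p = 0.0055, 0.0021, 0.00067, 0.31 and 0.27). C4a changed by 1.59 and 1.21 on days 1 and 2 (adjusted p = 0.0042 and 0.01) and by 0.19, 0.06 and 0.09 afterwards. C3, the central component, changed by 1.78, 1.39, 1.44, 0.37 and 1.35 (adjusted p = 0.0034, 0.006, 0.0043, 0.39 and 0.0076). Fcnb, a ficolin, was called higher on each day, by 1.59, 1.73, 2.96, 1.29 and 1.90 (adjusted p = 0.024, 0.013, 0.00075, 0.046 and 0.0087).

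Of the terminal components, 4 of 7 were tested, and C6 on day 5 (1.46, limma adjusted p = 0.023) was the only call in either direction. At an unadjusted p under 0.05, 1 of these 4 was higher and 0 lower on day 1, 0 and 1 on day 2, 1 and 1 on day 3, and 0 and 0 on day 4. Of 11 other regulators 4 were tested. Cr1l, which encodes Crry, the membrane regulator that rodents use widely in the place of Cd46 and Cd55, changed by 0.47, 0.49, 0.96, 0.63 and 0.71 on days 1 to 5, and passed on days 2 to 5 (adjusted p = 0.06, 0.047, 0.0014, 0.013 and 0.0083). C4bpb, a chain of C4b-binding protein, was lower on days 2, 3 and 5 (-1.03, -1.04 and -0.82; adjusted p = 0.016, 0.014 and 0.047), and C1qbp was higher on days 1, 4 and 5 (0.80, 0.78 and 0.75; 0.016, 0.012 and 0.019).

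Cr1l minus Cd55 within an array averaged 6.96 ± 0.21, 6.88 ± 0.22, 7.55 ± 0.25, 6.68 ± 0.49 and 6.60 ± 0.37 on days 1 to 5, against 5.67 ± 0.97 on the controls (log2, SD, n = 3). Without control replicate 4, the lowest at 4.58, the other controls averaged 6.22 ± 0.29 (n = 2), and the excess over the controls was 0.74 in place of 1.29 on day 1 and 0.46 in place of 1.01 on day 4. On days 1, 2 and 3 the lowest array (6.72, 6.68 and 7.27) lay above the highest control (6.42), and on days 4 and 5 the lowest (6.25 and 6.24) did not. Of 7 other receptors 3 were tested, and 2 of these, Itgb2 and Cd93, were well above background on every control. Itgb2, a chain of complement receptor 3, changed by 2.36, 2.43, 2.36, 0.79 and 1.00 on days 1 to 5 (adjusted p = 0.0034, 0.0015, 0.0014, 0.16 and 0.091). Cd93 was called on each day, by 1.35, 1.72, 2.28, 1.37 and 1.17 (0.029, 0.0073, 0.0014, 0.019 and 0.046). Itgam, the other chain of complement receptor 3, was well above background on 8 arrays, 0 of them controls. It passed the filter only through the groups in which it was high, so that its calls on days 1 to 3 (adjusted p = 0.0075, 0.0034 and 0.0053) are partly fixed by the filter. C5ar2, the second C5a receptor, was below the filter.

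**Figure D5:**
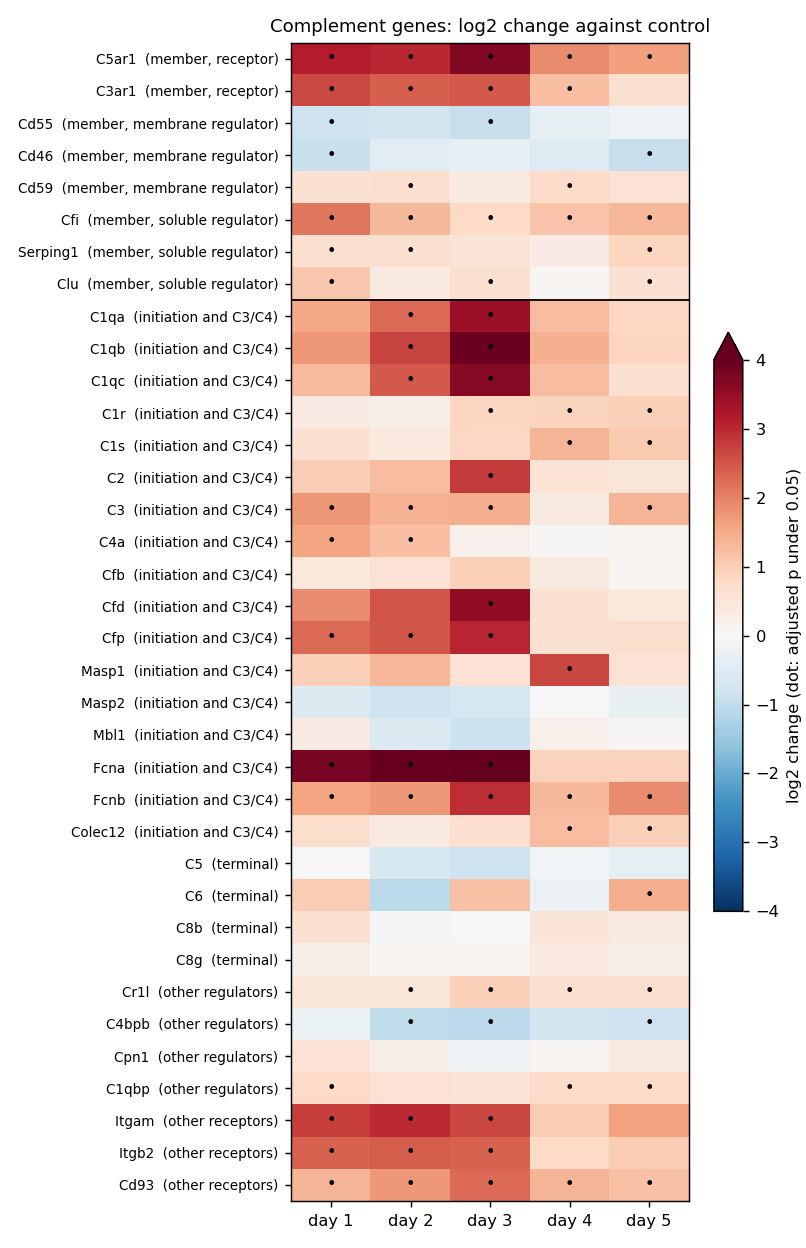
Log2 change against the controls on days 1 to 5 (columns) for the 8 members, above the black line, and other tested complement genes by role (rows); red is higher, blue is lower, colours end at 4, and a dot marks an adjusted p under 0.05. The receptors and most genes of initiation are red on days 1 to 3, and Cd55, Cd46 and C4bpb are the blue rows that hold dots.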

How the data were processed

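Per the file headers, the authors obtained the processed intensity in Agilent Feature Extraction 10.7.3.1 as spot brightness after background subtraction and detrending, unscaled between arrays. A deposited value table holds log2 values made by steps not given here; it ranks probes as the intensities do, has medians of 5.493 (controls, days 2 and 4) and 5.313 (days 1, 3 and 5), and served as an alternative within the first set only.

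The processed intensity was taken as log2 minus the array's 75th percentile. Control spots and flagged spots (80 to 142 on an array) did not enter, and replicate spots were averaged. A probe entered if well above background on all 3 arrays of at least 1 group: 27847 of 41012 did. Names were updated through a table of rat genes (21795 probes matched), and the brightest probe stood for a gene, which gave 23195 genes and transcripts with 56 missing values, left out of the fit. All 18 arrays were fitted with limma 3.58.1 in R 4.3.3 (lmFit, eBayes), with Benjamini-Hochberg adjustment over all genes tested and a threshold of 0.05; the procedure was tested on simulated data. Files were read and drawn with Python 3.11.15, pandas 2.3.3, numpy 2.4.6 and matplotlib 3.10.9.

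The members, gene lists and marker lists were chosen with earlier results of these data known. Every member is named; of other complement genes, at most 4 per role with the lowest F-test p, and 3 most similar genes per member. Of the other regulators, 1 gene is not reported here. Alternatives varied scaling, background correction, filter, probe rule, slide, scan day, replicate number, variance prior and arrays. Same-numbered arrays of different groups did not deviate together (27 pairs, correlations of -0.377 to 0.281, median -0.025, 8 over 0.1), so replicate numbers were not taken to pair samples. No probe was saturated.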

Additional observations from a re-analysis of the deposited data

How the results depend on the processing

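Of the 26 called changes of the 8 genes against the controls, those of C5ar1 on days 2 and 3 kept direction and call under every alternative run, and of 507 values of called changes under alternatives 366 did so, 137 kept the direction and lost the call, and 4 turned. The counts of members higher and lower under scaling to the median and to 12 reference genes stand with the counts. Of all called genes, 45.3% to 48.9% were higher as reported, 70% to 75.8% with the median and 6.2% to 16.1% with the reference genes. Members higher on day 2 were 3 after quantile normalization, 3 in the deposited value table and 3 with the 6 arrays alone; members lower on days 1 and 5 were 0 after quantile normalization.

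The planned normexp correction gave 0, 1, 1, 0 and 0 members higher on days 1 to 5 and 0 lower on days 1, 3 and 5, 1 passing the F-test, and 28, 1485, 1544, 2602 and 56 genes called (as reported, 9266, 10656, 11072, 12121 and 10269). Its fit diverged on 2 arrays, day 1 replicate 1 and day 5 replicate 5. A repaired form, chosen after seeing the data, gave 10551, 14082, 12457, 14920 and 10981 genes, 2 members lower on day 2 and 1 on day 4, 8 in the F-test and 1 between days 4 and 3. Between those days 3 were called with the reference genes, 1 with probes well above background on all arrays and 1 with an intensity trend. Slide as a random block gave 1 between days 5 and 1.

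Slide as a fixed block, which gave no value for days 2 and 4, gave 4095, 2901 and 103 genes on days 1, 3 and 5, 2 and 0 members higher on days 3 and 5, and 0 lower on these days. The 6 arrays of a comparison alone gave 3303 genes on day 1 and 4822 on day 5, 2 members higher on days 3 and 5, 1 lower on day 1 and 0 lower on days 3 and 5. No filter gave 1 member lower on day 1, and scan day 1 alone gave 0. With the replicate number as a replicate block, 3 members were higher on day 2, 2 on day 4, and 0 lower on days 1 and 3, with 7810 genes called on day 4.

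Leaving out each array in turn gave 4619 to 9642 genes on day 1 and 6518 to 10571 on day 5, the lowest without control replicate 4. Members lower ranged over 0 to 2 on day 1, 0 to 1 on days 2, 3 and 5, and members higher over 3 to 5 on day 2, 2 to 4 on day 3 and 2 to 4 on day 5. Besides control replicate 4, members lower were 0 on day 1 without day 1 replicate 1 or 4, on day 3 without day 3 replicate 2 or 4 and on day 5 without control replicate 2 or day 5 replicate 4. Without control replicate 2, 1 was lower on day 1 and 1 on day 2. Members higher were 3 on day 2 without day 2 replicate 4 and 2 on day 3 without day 3 replicate 3. Between days 5 and 3 the range was 0 to 2, and between days 5 and 1 it was 0 to 1.

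Directions turned as follows. With the reference genes, Clu was -0.094 on day 2 and -0.68 on day 4, Cd59 -0.094 on day 3 and Serping1 -0.42 on day 4. With the median, Cd46 was 0.042 on day 3 and Cd55 0.028 on day 4 and 0.21 on day 5. After quantile normalization, Cd46 was 0.020 on day 3, and on day 4 Clu was -0.35 and Serping1 -0.11, as in the deposited value table (-0.35 and -0.11). With normexp, Cd46 was 0.068 on day 1 and 0.064 on day 5, Cd55 0.018 on day 5, and C3ar1 -0.34 on day 4 in both forms and -0.15 on day 5 in the repaired form. With the mean of probes Serping1 was -0.075 on day 4. Leaving out 1 array gave -0.19 (without day 4 replicate 1) to 0.27 for Clu on day 4, and -0.069 without control replicate 4. It gave -0.44 to 0.14 (without control replicate 4) for Cd55 on day 5, and 0.28 came with slide as a fixed block. The causes were not tested. Dim signal limits C3ar1, Cd46 and Itgam, and 3 arrays per group limit all genes.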
